A study of Mus musculus with 4 samples.

Results

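The tripartite motif (Trim) family was described in mouse lungs that carried a floxed allele of IKKα and in wild type lungs. Its members were taken as the genes whose symbol is Trim followed by a digit and that have at least 1 probe set annotated to that gene alone. They came to 58 of the 18194 genes on the array that could be named. Each gene was read from the probe set with the highest mean over the arrays. Of the 58, 40 were bright enough to be tested, and the other 18 are described by their intensities.

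The data were 1 single-colour Affymetrix array for each of 4 lung samples, 2 from IKKa floxed and 2 from wild type mice, all labelled as strain B6/J. All animals, wild type included, had been given adenovirus with Cre recombinase into the trachea, and lungs were collected 4 months later. Cre excises DNA between loxP sites, and IKKα is a kinase of the complex that activates NF-κB. The labels give no ages, do not name the promoter that drives Cre, and do not say whether each array was a separate animal, so p-values measure the spread between these arrays, which may be technical. Chuk, the gene of IKKα, is not analysed here.

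Most TRIM proteins share an N-terminal RING domain, 1 or more B-box zinc fingers and a coiled coil, and many act as ubiquitin ligases. Their C-terminal ends set the target, such as the SPRY domain of antiviral members or the NHL repeats of others. Many members are switched on by interferon in leukocytes and epithelium, where they bind viral proteins or tag the sensors of viral RNA and DNA. Other members work in the nucleus as transcription cofactors, on microtubules, or in striated muscle.

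Array medians lay between 32.1 and 34.3 intensity units, and arrays correlated at r = 0.987 within the floxed group, 0.991 within wild type and 0.972 to 0.976 between groups (across genes, which are not independent replicates). Lung epithelial markers were present on every array, with 8 of 8 tested and none past the threshold. Both floxed arrays were above both wild type arrays for 7 of them and below for 1, against 23.6% and 22.2% of all tested genes. The sums of these markers were 70218 to 79429 in floxed lungs and 62222 to 63647 in wild type lungs. Xist, the X-inactivating transcript of female cells, stood at 4246 and 4629 in floxed lungs, against 31.8 and 22.9 in wild type lungs. Kdm5d, a Y-linked gene, stood at 0.711 and 0.418 in floxed lungs and at 109 and 130.2 in wild type lungs, so genotype and the female or male pattern cannot be told apart in any comparison here. The ratio of control probe sets at the 3′ and 5′ ends of a gene grows as RNA degrades. For Gapdh it was 1.44 and 1.68 on the floxed arrays and 1.18 and 1.10 on the wild type arrays. For beta-actin it was 2.67 and 2.77 on the floxed arrays and 2.65 and 2.46 on the wild type arrays. The part of RNA quality in the results was not tested.

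No Trim gene passed the test between floxed and wild type lungs. By limma with Benjamini-Hochberg adjustment over all genes and a threshold of 0.05, 0 of 40 tested members were called, where 1.77% of all 12736 tested genes were (1.01% higher and 0.762% lower in floxed lungs). At an unadjusted p under 0.05 there were 4 members, 3 higher and 1 lower in floxed lungs, against 7.12% of all genes in the first direction and 7.13% in the second. Both floxed arrays lay above both wild type arrays for 10 members and below them for 7, 17 of 40 without overlap. Over all tested genes the shares were 23.6% above and 22.2% below, 45.8% in all. The median log2 fold change of the tested members was 0.05, with 22 above 0 and 18 below, and that of all genes was 0.00, with 50% of them above 0. Single values ran from -0.36 for Trim13 to 0.69 for Trim30d, while the middle 90% of all tested genes spanned -0.42 to 0.42. In a bulk lung sample, fewer cells of a type and less RNA per cell cannot be told apart.

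**Figure D1:**
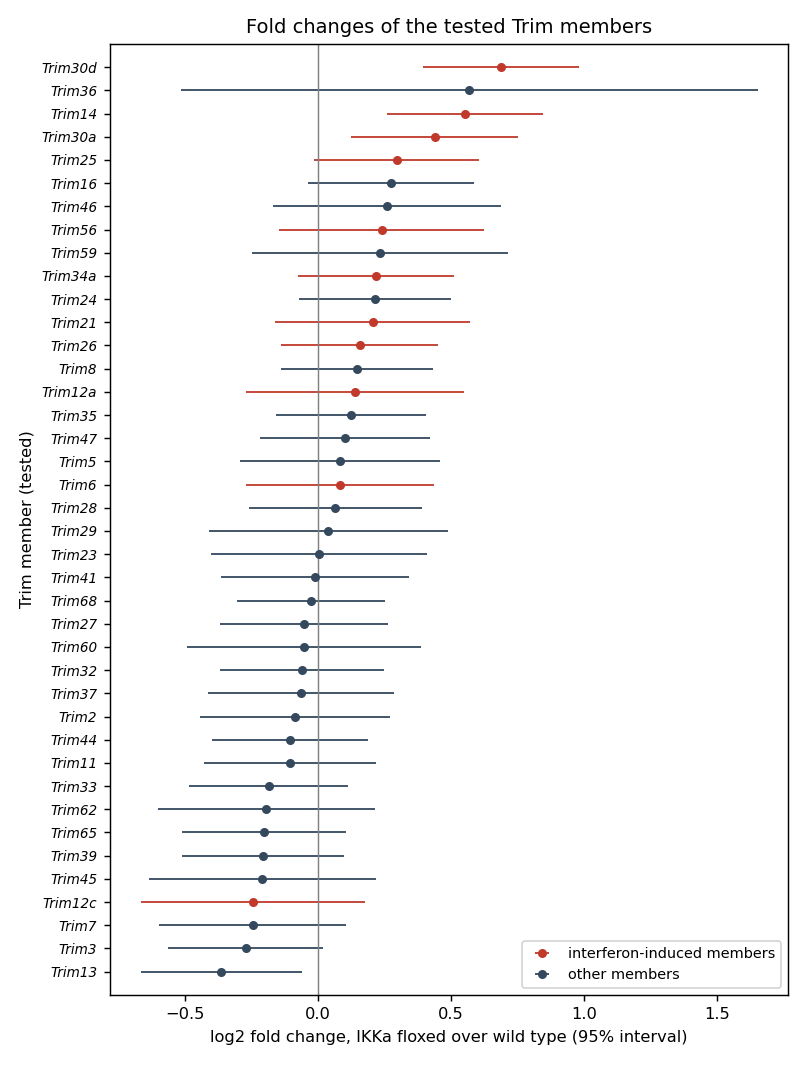
Log2 fold change of IKKa floxed over wild type lungs (x axis, with the 95% interval from limma) for each of the 40 tested Trim members (y axis), n = 2 arrays per group. Interferon-induced members are in red and the others in dark blue. Trim30d, Trim14 and Trim30a have intervals above 0, Trim13 has one below 0, and none passes after adjustment over all genes.

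None of the members known to be induced by interferon was called, and most of them had fold changes above 0. A list of 15 such genes, known as induced in mouse or, for the orthologue, in human, had 11 members on the array, all of them tested. Trim30b, Trim30c, Trim34b and Trim38 are not analysed here. The median log2 fold change of the 11 was 0.22, with 10 of 11 above 0, against -0.05 for the 29 tested members outside the list, of which 12 lay above 0. The list was chosen with earlier results of these data known, so this split may not be independent of the values. The floxed arrays lay above the wild type arrays for 6 of the 11 and below them for none, and for the 29 others the counts were 4 and 7. Of all tested genes, 23.6% lay above and 22.2% below in this way. The list median stayed between 0.20 and 0.25 in all 14 alternative analyses, while that of the other members ran from -0.10 to 0.04 and changed sign without IKKa floxed replicate 1 (0.04) and without wild type replicate 1 (0.01).

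Promoters of some of these members are shown because the interferon-stimulated response element is a DNA motif through which interferon acts on many such genes. They are from RefSeq, build GRCm38.p6, read 5′ to 3′ on the gene's strand from 250 bases before the annotated start to 30 bases after it, with capitals for the core of that element, which is GAAA, any 2 bases and GAAA again, searched on both strands so that its reverse complement counts too. The windows are chr7:104507820-104508099 (minus strand) for Trim30d, chr7:104465164-104465443 (minus) for Trim30a, chr7:102565453-102565732 (minus) for Trim21, chr7:104244207-104244486 (plus) for Trim34a and chr17:36836896-36837175 (plus) for Trim26.
Trim30d: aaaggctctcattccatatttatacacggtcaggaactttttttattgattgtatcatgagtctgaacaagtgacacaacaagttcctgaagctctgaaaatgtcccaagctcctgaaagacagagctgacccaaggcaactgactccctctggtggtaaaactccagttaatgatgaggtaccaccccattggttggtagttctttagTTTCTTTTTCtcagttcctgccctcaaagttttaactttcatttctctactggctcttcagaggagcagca
Trim30a: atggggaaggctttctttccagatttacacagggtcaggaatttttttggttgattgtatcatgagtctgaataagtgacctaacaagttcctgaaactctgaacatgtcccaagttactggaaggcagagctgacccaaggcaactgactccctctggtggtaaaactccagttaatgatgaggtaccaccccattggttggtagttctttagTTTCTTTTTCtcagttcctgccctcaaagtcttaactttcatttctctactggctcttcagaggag
Trim21: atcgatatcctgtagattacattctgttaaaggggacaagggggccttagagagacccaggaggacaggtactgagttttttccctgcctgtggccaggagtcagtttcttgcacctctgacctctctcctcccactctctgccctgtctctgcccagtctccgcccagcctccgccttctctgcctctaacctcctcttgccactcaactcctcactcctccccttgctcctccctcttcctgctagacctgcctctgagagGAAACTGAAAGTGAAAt
Trim34a: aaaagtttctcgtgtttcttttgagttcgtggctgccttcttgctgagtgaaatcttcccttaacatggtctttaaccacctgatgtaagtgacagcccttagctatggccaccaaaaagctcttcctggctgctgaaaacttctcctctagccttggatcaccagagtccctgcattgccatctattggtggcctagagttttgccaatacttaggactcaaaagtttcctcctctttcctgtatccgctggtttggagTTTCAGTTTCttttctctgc
Trim26: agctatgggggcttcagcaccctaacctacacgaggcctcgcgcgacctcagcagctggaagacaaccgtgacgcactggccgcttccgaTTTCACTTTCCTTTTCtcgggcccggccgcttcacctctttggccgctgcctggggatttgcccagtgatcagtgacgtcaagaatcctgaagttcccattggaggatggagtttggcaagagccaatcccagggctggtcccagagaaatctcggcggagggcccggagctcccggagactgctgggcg

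The core stood at an offset of -41 bases from the start in Trim30d and of -36 in Trim30a. It lay in a stretch of 118 bases that was identical between these promoter windows of the neighbouring genes. Trim30a had a second annotated start, whose window is not printed, with the core at an offset of 2. Trim21 had 2 overlapping matches just after its start, at offsets of 13 and 19, and Trim26 had 2 overlapping matches at -160 and -154. Over the full window of 300 bases, which ends 50 bases after the start, 7 of 10 interferon-induced members with a window held these letters, or 70%, against 2 of 37 other members (5.41%) and 3.99% of 27025 genes. The 7 were Trim12a, Trim12c, Trim21, Trim26, Trim30a, Trim30d and Trim34a, and the 2 others were Trim2 and Trim5. Some of these windows share sequence, so the genes are not independent counts. The longest identical run was 241 bases for Trim12a and Trim5, which is outside the list, and 71 for Trim12a and Trim12c. Trim25, Trim56 and Trim6 had no match in this window, and Trim14 had no window. All windows printed above held a match, while those of Trim12a and Trim12c, which also held one, are not printed. The letters TTCNNNGAA, the GAS element of interferon-γ signalling, were in 0 of the same 10 windows, in 4 of 47 of all Trim members with a window (8.51%) and in 9.55% of all genes. Among members with the response element core, fold changes ran from -0.24 for Trim12c to 0.69 for Trim30d, so a match was found on both sides of 0.

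Trim30d, of the mouse Trim30 cluster, had the largest log2 fold change in the family. Its intensities were 299 and 324 in floxed lungs, against 179.9 and 195 in wild type lungs. Both floxed arrays were above both wild type arrays, the log2 fold change was 0.69 ± 0.12 (SE, 1.61-fold), and the limma adjusted p was 0.0519, just short of the threshold. It passed in 4 of 14 alternative analyses, and over all of them the adjusted p ran from 0.0121 to 0.22. Trim30a, an inhibitor of NF-κB activation downstream of Toll-like receptors in mouse macrophages, stood at 402 and 437 in floxed lungs and at 283 and 328 in wild type lungs. The groups did not overlap here either, with a log2 fold change of 0.44 ± 0.13 (SE; unadjusted p = 0.0135, adjusted p = 0.198). The second probe set of each gene pointed the same way, at 0.33 for Trim30d and 0.52 for Trim30a. The Trim30 genes are close paralogues, and signal from one on the probe set of another cannot be told apart in these files. The 5 probe sets annotated to a Trim gene together with another gene were left out.

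Trim14, a member without a RING domain that acts as an adaptor in the sensing of viral RNA and DNA, stood at 162 and 147 in floxed lungs, against 96.3 and 104 in wild type lungs. The groups did not overlap, and the log2 fold change was 0.55 ± 0.12 (SE; unadjusted p = 0.00312, adjusted p = 0.0994). Its second probe set gave 0.31. Trim25, the ubiquitin ligase that activates the RNA sensor RIG-I, stood at 903 and 1052 in floxed lungs and at 787 and 795 in wild type lungs. Its floxed arrays were both higher, at a log2 fold change of 0.30 ± 0.13 (SE, adjusted p = 0.371), and its other probe sets gave 0.28 and -0.07.

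Trim21, the cytosolic antibody receptor that targets antibody-coated virus for degradation, did not separate the groups. Its intensities were 279 and 214 in floxed lungs, against 204 and 216 in wild type lungs. The higher floxed array lay above both wild type arrays and the lower one between them, the log2 fold change was 0.20 with a 95% interval of -0.16 to 0.57 (adjusted p = 0.61), and it was 0.02 without IKKa floxed replicate 1. The second probe set of Trim21 read 108 and 105 in floxed lungs and 82.6 and 88.9 in wild type lungs, without overlap, at a log2 difference of 0.26. The interval includes both no difference and changes as large as those of Trim30a and Trim14.

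**Figure D2:**
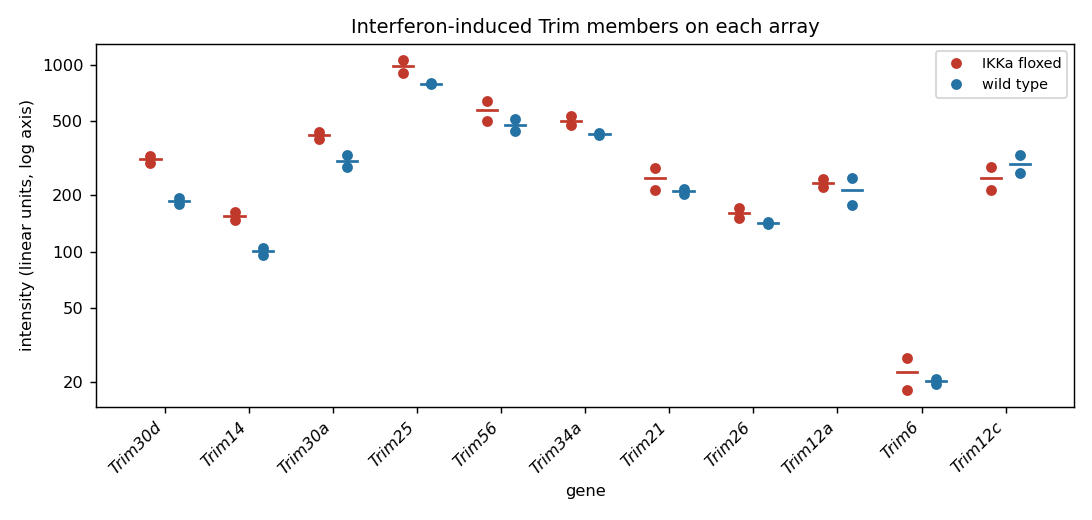
Deposited intensity (y axis, log scale) of the 11 interferon-induced Trim members (x axis) on each of the 2 IKKa floxed arrays (red, left) and 2 wild type arrays (blue, right), with short lines at the group means. The floxed points lie above the wild type points without overlap for Trim30d, Trim14, Trim30a, Trim25, Trim34a and Trim26.

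Trim34a, a SPRY-domain member of the chromosome 7 cluster, stood at 528 and 472 in floxed lungs, against 432 and 422 in wild type lungs. Trim26, encoded in the MHC region of chromosome 17, stood at 171 and 152 in floxed lungs, against 141 and 145 in wild type lungs. Neither gene's groups overlapped, at log2 fold changes of 0.22 ± 0.12 for Trim34a and 0.16 ± 0.12 for Trim26 (SE, adjusted p = 0.494 and 0.63). The dimmer probe set of Trim26 gave -0.31 and that of Trim34a -0.03, so the direction of Trim26 rests on the brighter probe set and turned to -0.08 when its probe sets were averaged. Trim56, which acts in the cGAS and STING pathway, stood at 496 and 642 in floxed lungs and at 442 and 511 in wild type lungs, with overlap (0.24 ± 0.16 SE, adjusted p = 0.565). Its value was 0.0596 without IKKa floxed replicate 2 and 0.42 without IKKa floxed replicate 1.

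The mouse relatives of human TRIM5, a factor that blocks incoming retroviruses, did not separate the groups. Trim12a read 222 and 243 in floxed lungs and 248 and 177 in wild type lungs, and its log2 fold change of 0.14 became -0.09 without wild type replicate 2. Trim12c was the 1 interferon-induced member below 0, with 213 and 282 in floxed lungs against 262 and 329 in wild type lungs (-0.24 ± 0.18 SE, adjusted p = 0.597), and its second probe set gave -0.15. With 1 array left out it lay between -0.43 (without IKKa floxed replicate 2) and -0.056 (without IKKa floxed replicate 1). Trim6, an activator of IKKε in human cells, was dim, at 18.1 and 27.0 in floxed lungs and 20.7 and 19.6 in wild type lungs, and its groups overlapped (0.08 ± 0.15 SE, adjusted p = 0.857).

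**Figure D3:**
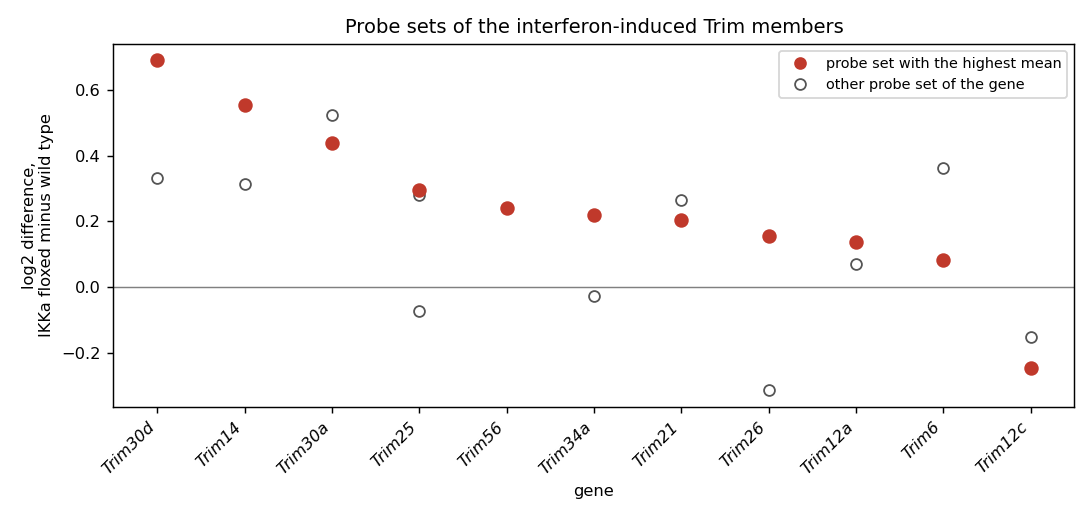
Log2 difference of IKKa floxed minus wild type lungs (y axis) for every probe set of the 11 interferon-induced Trim members (x axis). Filled red points are the probe set with the highest mean and open points the gene's other probe sets, of which 7 lie above 0 and 4 below.

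In all, 10 of the 11 had more than 1 probe set, and 3 of them had one that pointed the other way. The 11 further probe sets of the list had a median log2 difference of 0.26, and the 36 further probe sets of the other tested members had one of -0.03.

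Several of these genes lie together on mouse chromosome 7. In the RefSeq gene order, Trim6, Trim34a, Trim5, Trim12a, Trim34b and Trim12c follow one another without another protein-coding gene between them, and after 1 other gene come Trim30b, Trim30c, Trim30a and Trim30d. The log2 fold changes along that run were 0.08 for Trim6, 0.22 for Trim34a, 0.08 for Trim5, 0.14 for Trim12a, -0.24 for Trim12c, 0.44 for Trim30a and 0.69 for Trim30d. The 2 highest values of the run were those of Trim30a and Trim30d, a description of 7 neighbours that share arrays and, for the paralogues, sequence. Trim5 itself overlapped between groups (73.0 and 98.3 in floxed lungs, 84.4 and 74.4 in wild type lungs). Chromosome 7 held 13 of the 58 members in all, and Trim3 on the same chromosome stood at -0.27.

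Trim25, Trim14 and Trim56 work in the sensing of viral nucleic acid. On a list of sensing and ISG15 genes, the 1 call was Herc6, of ISG15 conjugation, and no sensor was called. Of 16 tested genes for the sensing of cytosolic RNA and DNA and for ISG15 conjugation, out of 18 listed, 1 rose and none fell. Of all tested genes, 1.01% were called higher and 0.762% lower. The median log2 fold change of the list was 0.35. Both floxed arrays lay above both wild type arrays for 11 of the 16 and below them for none, against 23.6% and 22.2% of all tested genes. Herc6, the ligase that attaches ISG15 in mouse, rose to 231 and 210.4 in floxed lungs, against 103 and 116 in wild type lungs (log2 fold change 0.92 ± 0.13 SE, adjusted p = 0.023). That call was lost in 5 of 14 alternative analyses, among them those without IKKa floxed replicate 1 and without wild type replicate 1 (adjusted p = 0.0582 and 0.0819). With the mean of all its probe sets it was 0.46 (adjusted p = 0.131). The RNA sensors Dhx58 and Ifih1 stood at 0.65 ± 0.14 and 0.43 ± 0.12 (SE, adjusted p = 0.0899 and 0.163), and the DNA sensor Cgas at 0.50 ± 0.12 (SE, adjusted p = 0.117). Ddx58, which encodes RIG-I and was picked after values were seen as the target of Trim25, stood at 0.42 ± 0.14 (SE, adjusted p = 0.242).

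Of 12 tested interferon signal transducers, out of 14 listed, 1 rose and none fell, against 1.01% and 0.762% of all tested genes. The median log2 fold change of the list was 0.22. Irf1, a transcription factor induced by interferon-γ, rose to 1576 and 1317 in floxed lungs, against 767 and 819 in wild type lungs (0.85 ± 0.14 SE, adjusted p = 0.0391). Its call was lost in 6 of 14 alternative analyses, with adjusted p = 0.0779 without IKKa floxed replicate 1, 0.12 without wild type replicate 1 and 0.0947 without wild type replicate 2. The transcription factors Irf8 (0.81), Irf9 (0.58) and Stat2 (0.58 on the log2 scale) did not pass, at adjusted p = 0.0683 for Irf8, 0.0857 for Irf9 and 0.123 for Stat2. The interferon-induced Trim members had the same median of 0.22, and whether the lists differ was not tested.

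**Figure D4:**
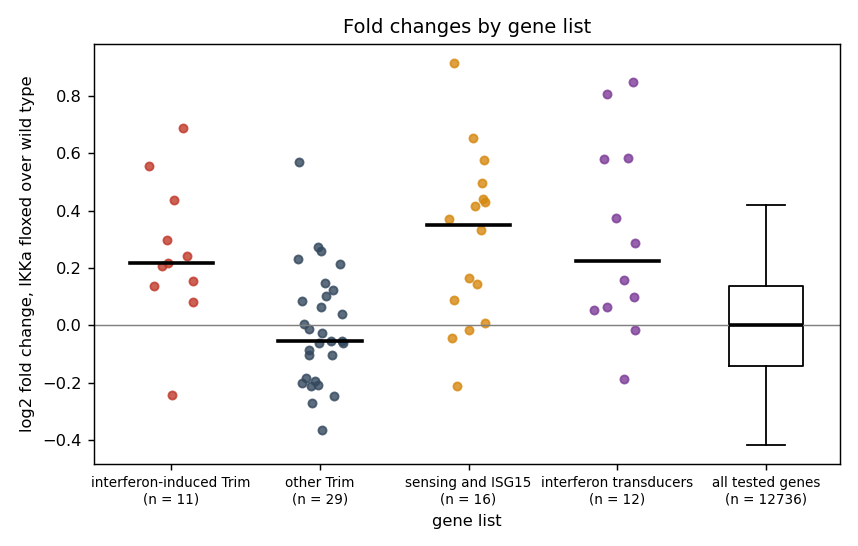
Log2 fold change of IKKa floxed over wild type lungs (y axis) for the tested genes of each list (x axis), with black lines at the medians of 0.22, -0.05, 0.35 and 0.22. The box gives the quartiles of all 12736 tested genes and its whiskers the 5th and 95th percentiles, -0.42 and 0.42.

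Some markers of T cells and macrophages rose on the same floxed arrays, where 1.01% of all tested genes were called higher. Of 7 T cell markers, 5 of them tested, 3 rose (Cd5, Cd8b1 and Cd3g, by 0.96, 1.49 and 0.89 on the log2 scale). The summed intensity of the list was 507 to 701 in floxed lungs and 257 to 269 in wild type lungs. Cd3e, below the filter, overlapped, at 14.8 and 10.4 in floxed lungs and 5.85 and 32.2 in wild type lungs. Of 8 macrophage and monocyte markers 4 rose, led by Marco (1.80), Fcgr4 (1.37) and Fcgr1 (1.04). The lowest were Siglecf (0.18) and Csf1r (0.21), without a call (limma adjusted p = 0.567 and 0.485). The sums of this list were 5006 to 5579 in floxed lungs against 3676 to 3728 in wild type lungs. The list of B cell markers had 4 of 5 genes on the array, none called, and sums of 292 to 416 in floxed lungs and 427 to 462 in wild type lungs. The 3 markers of all leukocytes, Ptprc, Laptm5 and Coro1a, stood at 0.43, 0.51 and 0.49 on the log2 scale without a call (adjusted p = 0.186, 0.178 and 0.283), with list sums of 3571 to 3729 in floxed lungs and 2526 to 2699 in wild type lungs. Among these lists Cd4 was dim on every array, at 3.16 and 5.08 in floxed lungs and 3.56 and 3.52 in wild type lungs, and no marker was at 0. Their part in the values of the Trim genes was not tested.

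The striated muscle members were too dim for the test. Trim54 and Trim63, the muscle ring finger ligases of the sarcomere, read 1.79 and 2.80 for Trim54 and 2.98 and 1.45 for Trim63 in floxed lungs. In wild type lungs they read 10.6 and 26.0 for Trim54 and 6.90 and 20.2 for Trim63, so both floxed arrays were below both wild type arrays. Trim72, a membrane repair protein of muscle, read 1.37 and 2.47 in floxed lungs and 1.68 and 1.47 in wild type lungs. Cardiac muscle genes, which mouse lung carries in the walls of its veins, fell on the same arrays for 8 of 9 markers, with summed intensities of 494 to 634 in floxed lungs and 4818 to 7099.6 in wild type lungs. Wild type replicate 2, the array with the highest cardiac sum, was also the highest for Trim54 and Trim63. Skeletal muscle markers summed to 80.1 to 129 in floxed lungs and 163 to 187 in wild type lungs. Of 3 tested, 1 was called lower, Ckm (limma adjusted p = 0.0487). Among those under the filter, Myh1 and Myh2 overlapped. Both floxed arrays were above both wild type arrays for Myh4 and below them for Tnnt3 and Actn3. Of all tested genes, 0.762% were called lower. The 3 adipose markers on the array all fell, with sums of 48.0 to 67.8 in floxed lungs and 694 to 972 in wild type lungs, and the part of muscle and fat in the Trim values was not tested.

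The nuclear TIF1 cofactors, which bind modified histones and regulate transcription, had fold changes on both sides of 0 and none passed. Trim24 stood at 239 and 219 in floxed lungs, against 193 and 196 in wild type lungs, without overlap (0.21 ± 0.12 SE, adjusted p = 0.49), but its 2 dimmer probe sets gave -0.18 and -0.43. Trim33, a regulator of SMAD signalling, stood at 386 and 358 in floxed lungs, against 448 and 403 in wild type lungs, also without overlap (-0.19 ± 0.13 SE, adjusted p = 0.565). Trim28, the corepressor recruited by KRAB zinc finger proteins, read 578 and 696 in floxed lungs and 606 and 605 in wild type lungs, with a 95% interval of -0.26 to 0.39. Trim66 was below the filter, at 9.03 and 8.68 in floxed lungs and 17.2 and 12.1 in wild type lungs.

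All 3 tested members with NHL repeats lay below 0, and none was called. Trim3 stood at 124 and 121 in floxed lungs, against 144 and 159.9 in wild type lungs, and its groups did not overlap (-0.27 ± 0.12 SE, adjusted p = 0.38). Trim2, a ligase for neurofilament light chain, and Trim32, mutated in a human limb-girdle muscular dystrophy, had log2 fold changes of -0.09 and -0.06 with overlapping groups. Both turned sign with 1 array left out, Trim2 to 0.0762 without IKKa floxed replicate 1 and Trim32 to 0.017 without IKKa floxed replicate 2 and 0.0092 without wild type replicate 2. Of the 5 other probe sets of Trim2, 2 pointed the other way, at 0.11 and 0.19. Trim71 was below the filter, at 7.86 and 12.6 in floxed lungs and 7.18 and 2.94 in wild type lungs. Of the microtubule-linked members, Trim36 had the largest standard error on the log2(intensity + 16) scale among the 40 tested, with 100.3 and 40.8 in floxed lungs and 19.8 and 67.7 in wild type lungs. Its log2 fold change of 0.57 ± 0.45 (SE, adjusted p = 0.633) turned to -0.04 without wild type replicate 1. Trim46, which organises microtubules at the start of the axon, read 21.0 and 34.6 in floxed lungs and 17.5 and 23.0 in wild type lungs, with overlap. Trim9 and Trim67 were below the filter, Trim9 at 0.916 and 1.68 in floxed lungs and 10.8 and 2.72 in wild type lungs, and Trim67 at 1.37 and 9.30 in floxed lungs and 10.2 and 2.87 in wild type lungs.

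Among the remaining tested members, the lowest was Trim13, a ligase anchored in the endoplasmic reticulum. It stood at 88.2 and 93.7 in floxed lungs, against 130.4 and 113 in wild type lungs, and both floxed arrays were lower (-0.36 ± 0.13 SE; unadjusted p = 0.0251, adjusted p = 0.26). Trim39 stood at 157 and 154 in floxed lungs and at 169 and 196 in wild type lungs (-0.21 ± 0.13 SE, adjusted p = 0.529). Trim65, which ubiquitinates the RNA sensor MDA5, stood at 49.8 and 40.9 in floxed lungs and at 53.6 and 55.3 in wild type lungs (-0.20 ± 0.13 SE, adjusted p = 0.546). Trim7, a partner of glycogenin, and Trim45 had log2 fold changes of -0.25 and -0.21, and the groups of Trim45 overlapped. Without wild type replicate 1 the value of Trim45 was -5e-04, and without wild type replicate 2 it was -0.42.

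On the other side, Trim16, which takes part in autophagy of damaged membranes, read 315 and 317 in floxed lungs and 280.3 and 238 in wild type lungs. Both floxed arrays were higher (0.27 ± 0.13 SE, adjusted p = 0.413), and its second probe set gave 0.30. Trim8 read 226 and 239.98 in floxed lungs, against 202 and 216 in wild type lungs, also without overlap (0.15 ± 0.12 SE, adjusted p = 0.639), while 1 of its dimmer probe sets gave -0.44. Trim59 overlapped, with 65.4 and 99.6 in floxed lungs and 76.7 and 57.6 in wild type lungs.

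The 18 members below the filter ranged from 0.378 to 27.7 intensity units on single arrays. Both floxed arrays were above both wild type arrays for 3 of them, below for 7, and overlapping for 8. Of all 5458 genes under the filter, 17.9% lay above and 17.2% below. Trim31, a ligase encoded beside the MHC, read 16.5 and 17.8 in floxed lungs, against 6.07 and 4.87 in wild type lungs. Trim17 read 3.34 and 9.54 in floxed lungs, against 19.2 and 12.1 in wild type lungs. At this level the deposited values have no stated floor, so no fold change is given. With no filter on low genes, 0 of all 58 members were called.

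TRIM proteins whose genes carry other names were read as a short list of 5, all tested and none called. Mid1, an X-linked ubiquitin ligase on microtubules, stood at 13.5 and 27.4 in floxed lungs, against 47.6 and 61.6 in wild type lungs. Its groups did not overlap, and the log2 fold change was -0.97 ± 0.21 (SE, adjusted p = 0.0886). With the replicate number as a block its adjusted p was 0.0372, and without IKKa floxed replicate 2 it was 0.022. The mean of all its probe sets gave -0.15. For this X-linked gene too, genotype and the female or male pattern cannot be told apart. Pml, the interferon-induced scaffold of nuclear bodies, had a log2 fold change of 0.18 ± 0.16 (SE, adjusted p = 0.675). Mid2, Mefv and Bspry stood at -0.21, 0.19 and -0.16, with overlapping groups.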

How the data were processed

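The authors deposited linear intensity values, 1 for each probe set on an array. Per the submitters' processing notes the values came from Affymetrix Expression Console, with version and signal algorithm not given in the sources used here. The mean intensity after trimming 2% from each end was 150.001 on every array, so the deposited values had been scaled. No probe-level files or detection calls were used.

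Of 45101 probe sets, 34958 had 1 gene symbol, 932 had several and named no gene, and 9160 were not listed in the platform annotation. Of the 64 control probe sets, 13 were listed with a symbol and counted among these, and 2 genes, Actb and Gapdh, were read from one. Entrez numbers matched 34754 probe sets to RefSeq (GRCm38.p6), with 0 symbols changed. Values were log2(intensity + 16), which understates the change of low genes. Genes under the 30th percentile of mean intensity (21.0) were left out, which left 12736. Tests between groups used lmFit and eBayes of limma 3.58.1 under R 4.3.3 (two-sided, 2 residual degrees of freedom), with Benjamini-Hochberg adjustment over all genes tested. Array medians differed by 0.0646 at most, under the limit of 0.1 set for quantile normalization. The design left a smallest exact permutation p of 0.333, so no single-gene permutation tests were run. The procedure was tested on simulated data.

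Members and lists were chosen with earlier results of these data known. Named genes were called members, all interferon-induced, muscle, TIF1, NHL-repeat and microtubule-linked members, the 6 highest and 6 lowest others, and called members of each pathway list or its 4 with the largest t. Trim31, Trim17, Trim5, Ddx58 and the shared leukocyte markers were named after their values were seen. Alternatives were pseudocounts, filters, quantile normalization, an intensity trend, other probe set rules, a replicate block and each array left out. The number of arrays limits the precision.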

Additional observations from a re-analysis of the deposited data

How the results depend on the processing

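No Trim member was called in 10 of 14 alternative analyses. The exception was Trim30d, the 1 member called with a pseudocount of 64 (adjusted p = 0.0127), a 50th percentile filter (0.0225), quantile normalization (0.0478) or an intensity trend with robust prior (0.0121). It was not called whichever array was left out (range of calls 0 to 0), and its log2 fold change stayed between 0.51 and 0.74. A filter on the mean log2 level, chosen after seeing the data, also gave 0 calls.

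Among all genes, 225 calls became 108 with a pseudocount of 1, 362 with 64, 69 with no filter, 389 with the trend and robust prior, and 145 to 251 with an array left out, the lowest without wild type replicate 2. The sensing list had 0 calls with a pseudocount of 1, no filter or the mean of all probe sets, and 0 to 1 with an array left out. The interferon transducers had 0 calls with a pseudocount of 1, with no filter or with a replicate block, 3 with a pseudocount of 64, the 50th percentile filter or the trend and robust prior, and 0 to 1 with an array left out. The replicate block gave 1 call among the TRIM genes with other names (Mid1), which had 0 to 1 with an array left out, and 198 calls among all genes. The replicate numbers share no stated source, and deviations of arrays with the same number correlated at 0.002. With 2 arrays per group, this value cannot show whether arrays with the same number shared a source.

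With an array left out, the median log2 fold change was -0.0492 to 0.0776 for the family, 0.23 to 0.25 for the interferon-induced members and -0.0979 to 0.0439 for the others. Several values changed sign, among them that of Trim36 (0.57), and for 20 of the 27 named and tested Trim members leaving out 1 array moved the value by over 1.5 times. With the mean of all probe sets Trim24 gave -0.13, Trim26 -0.0781 and Trim8 -0.0501. With an array left out, Trim12a ran from -0.0869 to 0.364, Trim2 from -0.248 to 0.0762, Trim28 from -0.0661 to 0.196, Trim32 from -0.138 to 0.017, Trim36 from -0.0437 to 1.18, Trim59 from -0.021 to 0.485, Pml from -0.0293 to 0.394 and Trim6 from -0.0843 to 0.248. With 1 mismatch allowed, 48.9% of Trim members with a window held the response element core and 72.3% the GAS letters, against 38.9% and 74.2% of all genes. The interferon-induced members then had the core in 90% and the GAS letters in 60% of 10 windows, so their count of 0 for GAS held for exact matches only. The cause of these changes was not tested. Calls of the muscle members had no value, since none passed the filter, and nor had those of the microtubule-linked members under the 50th percentile filter.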
